A study of Mus musculus with 6 samples.

Results

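The 10 genes described here encode inhibitory and costimulatory receptors of T cells. They were chosen by name, as Pdcd1, Ctla4, Lag3, Havcr2 and Tigit on the inhibitory side and Icos, Cd28, Tnfrsf4, Tnfrsf9 and Tnfrsf18 on the costimulatory side, and all 10 were found among the 23930 genes of the table. The RNA came from CD31-positive cells that were isolated by FACS 2 weeks after Lewis Lung Carcinoma (LLC) cells, an established line from a mouse lung tumour, had been injected under the skin of C57/Bl6 mice. The control group (replicates 1, 2 and 3) came from tumours of control LLC cells, and the BMP9 overexpression group (replicates 4, 5 and 6) from tumours of LLC cells that overexpressed BMP9, a bone morphogenetic protein with receptors on endothelium. The labels give 1 host strain for both groups and no alteration of it. The labels name neither the vector and promoter that drive BMP9 nor a sex or age of the mice, and nothing in them says that each library stands for its own mouse. The p-values therefore rest on the spread between these 6 samples, and that spread may be technical.

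T cells need a signal from the T cell receptor and a second, costimulatory signal to become active. CD28 and ICOS give that second signal through phosphoinositide 3-kinase, and the TNF receptor family members OX40 (Tnfrsf4), 4-1BB (Tnfrsf9) and GITR (Tnfrsf18) give it through TRAF adaptors. PD-1 (Pdcd1), CTLA-4, LAG-3, TIM-3 (Havcr2) and TIGIT restrain the same cells and are known as immune checkpoints. Antibodies against some of them are used to treat tumours. Several are not limited to conventional T cells: CTLA-4, ICOS, OX40 and GITR are high on regulatory T cells, 4-1BB, LAG-3 and TIGIT are also carried by activated NK cells, and TIM-3 is also carried by macrophages and dendritic cells.

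The start sites of 3 members whose levels moved differently are shown first, because Havcr2 was the 1 member that rose, Tnfrsf9 the member with the highest level and Ctla4 the inhibitory member that fell least. The sequences are the 250 bases before the start site in RefSeq on GRCm38.p6, printed 5′ to 3′ on the strand of the gene. Capitals mark matches on either strand to GGAAA, the core that NFAT factors recognise, to TGANTCA, the AP-1 element, or to TGTGGT, the core that RUNX factors recognise.
Havcr2, chr11:46454681-46454930, plus strand: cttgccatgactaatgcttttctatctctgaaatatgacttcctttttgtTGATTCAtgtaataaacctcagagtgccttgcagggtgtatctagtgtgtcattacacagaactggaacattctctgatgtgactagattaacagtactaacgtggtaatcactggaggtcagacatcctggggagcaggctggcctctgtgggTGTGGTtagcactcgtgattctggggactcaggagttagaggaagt
Tnfrsf9, chr4:150919905-150920154, plus strand: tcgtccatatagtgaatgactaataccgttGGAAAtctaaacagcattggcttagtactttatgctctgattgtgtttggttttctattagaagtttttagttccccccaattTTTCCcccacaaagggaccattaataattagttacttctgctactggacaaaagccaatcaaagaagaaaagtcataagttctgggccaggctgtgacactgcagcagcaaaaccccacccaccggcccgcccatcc
Ctla4, chr1:60908775-60909024, plus strand: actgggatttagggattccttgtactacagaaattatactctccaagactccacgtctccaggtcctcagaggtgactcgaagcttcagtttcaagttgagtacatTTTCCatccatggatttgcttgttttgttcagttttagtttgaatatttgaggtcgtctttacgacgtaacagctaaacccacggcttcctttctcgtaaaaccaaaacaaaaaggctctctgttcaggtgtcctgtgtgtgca
Havcr2 held 1 TGANTCA and 1 TGTGGT match and no GGAAA match. The Tnfrsf9 start shown held 2 GGAAA matches and the Ctla4 start 1, and in the 3 windows no matches overlapped. The other Tnfrsf9 start, at chr4:150927749-150927998 and not printed, held 3 GGAAA matches and 1 TGANTCA match. The windows of Tnfrsf9 and Ctla4 lie inside the span that GENCODE M21 gives these genes, which holds further starts. GGAAA stood in 7 of the 8 windows found for members (7 genes, of which Tnfrsf9 has more than 1 start), against 55.6% of all 32851 windows of this length. TGANTCA stood in 2 of the 8, against 6.75% of all windows, and TGTGGT in 2 of the 8, against 14% of all windows. These matches are a description of the letters and not of binding.

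The libraries held between 1321762 reads (control replicate 2) and 28380957 reads (BMP9 replicate 6). All 10 members passed the low-value filter of at least 5 RPM (reads scaled to a common library size of 1e+06) in at least 3 libraries. The lowest number of reads behind any member was 18, for Tigit in BMP9 replicate 4. The values come from a panel that amplifies 1 short segment per gene, so a level of 1 gene can be set against that of another only roughly. Endothelial markers were scarce in these CD31-positive cells. Of 12 endothelial markers 8 were below the filter, and the 11 other than Pecam1 (the gene of CD31) had a sum of 40.7 ± 17.1 RPM in control against 40.5 ± 11.4 RPM in BMP9 overexpression libraries (SD, n = 3 each), with groups overlapping. The 14 T cell markers gave a sum of 4464 ± 222 RPM in control and 999 ± 359 RPM in BMP9 overexpression libraries. Markers of macrophages and monocytes, 14 in number, gave 6344 ± 1352 RPM in control and 21771 ± 3116 RPM in BMP9 overexpression libraries (SD, n = 3 each). RPM is a share of each library. In RNA of a mixed population, fewer cells of a type, less RNA per cell and more RNA from other cells thus cannot be told apart.

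Most of the receptors were lower in cells from BMP9 overexpressing tumours. Of the 10 members 8 fell, 1 rose (Havcr2) and 1 (Icos) did not pass the test, on log2(RPM + 1) with limma and Benjamini-Hochberg adjustment over 9460 genes at 0.05, where 35.2% of all genes tested were called, 22.5% lower and 12.7% higher. The median log2 fold change of the members was -1.68, beside -0.24 over all genes tested. Groups of libraries did not overlap for 8 of the 10 members, against 48.1% of all genes tested. The 9 members other than Havcr2 together summed to 1370, 1673 and 1666 RPM in the control libraries (always given in the order of replicates 1, 2 and 3). The sums were 697, 505 and 328 RPM with BMP9 overexpression (in the order of replicates 4, 5 and 6). Every control library was above every BMP9 library, and the control mean was 3.08 times the other. T cell markers moved with them: 13 of 13 tested fell, with a median of -2.07, and so did NK cell markers, 12 of 12 tested with a median of -3.11, for example Klrd1 at -3.76 (SE 0.30). Proliferation genes fell as well, 8 of 8 with a median of -2.53. The part of these shifts in the members' decrease was not tested. Scaling with TMM factors moved the median of all genes to 0.00 and that of the members to -1.43. With TMM 6 members were lower, as were 1383 of all 9460 genes tested. Of all genes called, 36% were higher as deposited and 54.1% with TMM.

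**Figure D1:**
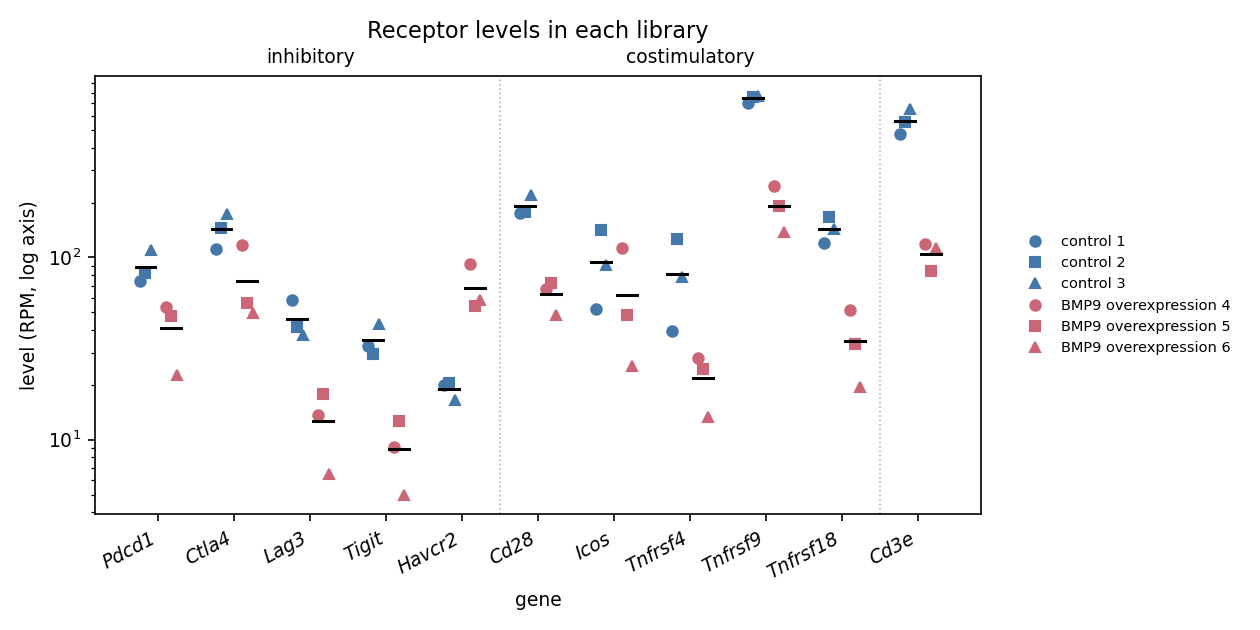
Level of each receptor and of Cd3e in each library (RPM, log axis), with inhibitory receptors at the left, costimulatory receptors in the middle and Cd3e at the right. Points are libraries, marked by replicate, and black bars are group means (n = 3 each). Havcr2 is the 1 receptor whose BMP9 overexpression libraries (54.2 to 91.7 RPM) lie above its control libraries (16.5 to 20.4 RPM).

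Among the inhibitory receptors, Pdcd1 encodes PD-1, which recruits the phosphatase SHP-2 to the activated receptor complex. It lies on chromosome 1 (94038305 to 94052553, mm10). Its level was 74.6, 81.7 and 110 RPM in control and 53.2, 47.9 and 22.6 RPM in BMP9 overexpression libraries. All 3 BMP9 libraries were below all 3 controls, with replicate 6 the lowest. Pdcd1 fell by 1.16 on the log2 scale (SE 0.34, limma adjusted p = 0.015). This call was lost without control replicate 3 (adjusted p = 0.07 by limma) or without BMP9 replicate 6 (-0.78, adjusted p = 0.092), with TMM scaling (-0.91, adjusted p = 0.052), and within the earlier of the 2 run time stamps in the labels (-0.71, adjusted p = 0.16).

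Ctla4 encodes CTLA-4, which competes with CD28 for the ligands CD80 and CD86. It lies on chromosome 1 (60887000 to 60915832). Its level was 111, 145 and 172 RPM in the control replicates and 117, 56 and 49.7 RPM in BMP9 replicates 4, 5 and 6. BMP9 replicate 4 lay among the controls, so the groups overlapped. Ctla4 fell by 1.02 (SE 0.33, limma adjusted p = 0.026). That call was lost without control replicate 2 (adjusted p = 0.07 by limma) or 3 (-0.88), without BMP9 replicate 5 (-0.87) or 6 (-0.79), and with TMM scaling (-0.77, adjusted p = 0.089). Its change was -1.40 without BMP9 replicate 4 and -0.26 within the earlier run time stamp. The earlier stamp is on the controls and BMP9 replicate 4, and the later one on BMP9 replicates 5 and 6.

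Lag3 encodes a CD4-like receptor that binds MHC class II, and lies on chromosome 6 (124904361 to 124911705). It was at 58.7, 41.6 and 37.5 RPM in control and at 13.7, 17.9 and 6.45 RPM in BMP9 overexpression libraries. Lag3 fell by 1.86 (SE 0.37, limma adjusted p = 0.0015), with no overlap of the groups. Tigit encodes a receptor for PVR that opposes the activating receptor CD226, and lies on chromosome 16 (43648867 to 43664146). It was at 32.7, 29.5 and 43 RPM in control and at 9.12, 12.7 and 5 RPM in BMP9 overexpression libraries. Tigit fell by 1.92 (SE 0.36, limma adjusted p = 0.00096), and its groups did not overlap either. It was the lowest member in BMP9 overexpression libraries, where its range overlapped that of Lag3.

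Havcr2 moved the other way. It encodes TIM-3, an inhibitory receptor of exhausted T cells and of myeloid cells, and lies on chromosome 11 (46454935 to 46481255). It was the lowest member in control libraries, at 19.9, 20.4 and 16.5 RPM, and no control library reached the range of Tigit, the next in order. In BMP9 replicates 4, 5 and 6 it was at 91.7, 54.2 and 58.3 RPM, of rank 3 among the members and overlapping Ctla4, Cd28 and Icos. The mean was 3.6 times that of control, and Havcr2 rose by 1.76 on the log2 scale (SE 0.31, limma adjusted p = 0.00052). Its call held in each of the 18 alternatives tried, at 1.53 to 2.22. Macrophage and monocyte markers moved with it: 13 of 13 tested rose, with a median of 2.28, among them Itgam at 3.21 (SE 0.31) and Cd68 at 2.77 (SE 0.28). Of 10 dendritic cell markers 3 fell and none rose, with a median of -0.42. Csf1r, the receptor for the macrophage growth factor CSF1, was at 97.3, 86.2 and 126 RPM in control and at 591, 263 and 238 RPM in BMP9 overexpression libraries (log2 fold change 1.70, SE 0.33, limma adjusted p = 0.0012). Relative to Csf1r the level of Havcr2 was 20.4%, 23.7% and 13.1% in control and 15.5%, 20.6% and 24.5% in BMP9 overexpression libraries, and these ranges overlapped. Relative to Cd68, a lysosomal protein of macrophages, it was lower, at 16.3 ± 3.94% in control and 8.37 ± 2.07% in BMP9 overexpression libraries (SD, n = 3 each, no overlap).

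Measured against the mean log2 level of all 14 macrophage and monocyte markers in the same library, a comparison added after seeing the data, Havcr2 differed between groups by -0.26 (95% interval -0.94 to 0.42, limma adjusted p = 0.43). The other 9 receptors were lower by 2.76 to 4.12 on that scale and all passed the test, as did 91.8% of all genes tested in that direction, with 0.856% higher. The alternatives for Havcr2 on this scale gave -0.46 to -0.01. The part of myeloid cells in the rise of Havcr2 was not tested.

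**Figure D2:**
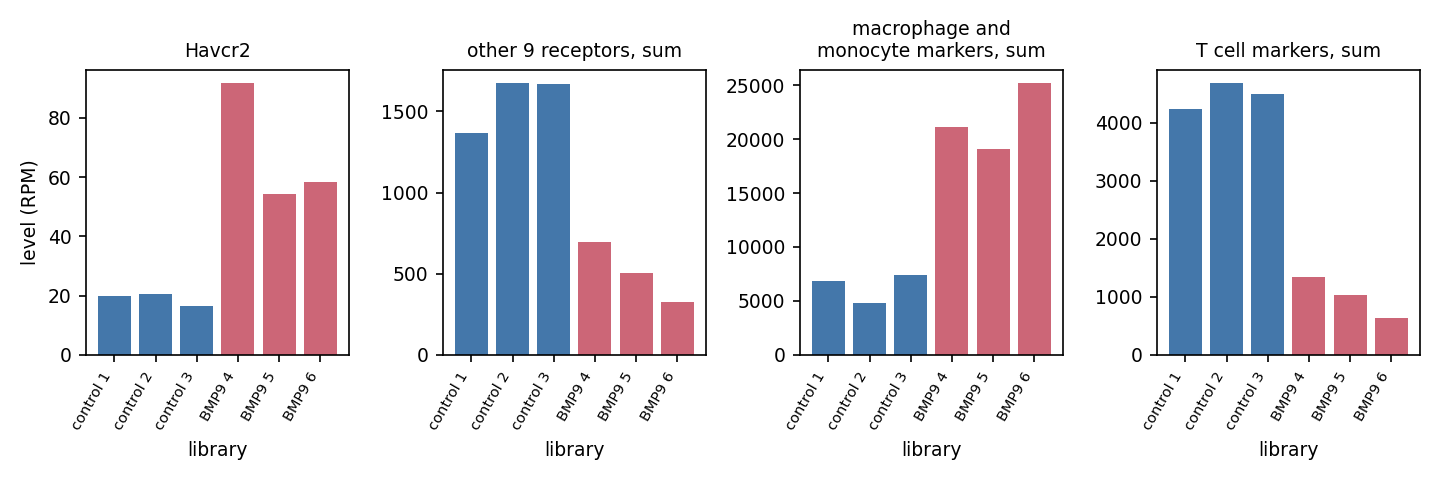
Level in RPM (linear axes from 0, 1 scale per panel) of Havcr2, of the other 9 receptors summed, of the 14 macrophage and monocyte markers summed and of the 14 T cell markers summed, with 1 bar per library, control in blue and BMP9 overexpression in red. Havcr2 is higher in the same 3 libraries in which macrophage and monocyte markers are higher, and the other 9 receptors are lower where T cell markers are lower.

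Among the costimulatory receptors, Cd28 encodes the main costimulatory receptor of naive T cells. It lies on chromosome 1 (60716800 to 60773359), 114 kb from Ctla4, which in turn lies 62.1 kb from Icos, with no protein-coding gene between them. Cd28 was at 175, 178 and 220 RPM in control and at 67.4, 72.3 and 48.5 RPM in BMP9 overexpression libraries. The groups were far apart and Cd28 fell by 1.60 (SE 0.27, limma adjusted p = 0.00039), in all 18 alternatives. Icos, which sustains helper and regulatory T cells after activation (chromosome 1, 60977927 to 61000320), was at 52.4, 141 and 91 RPM in control and at 113, 48.5 and 25.3 RPM in BMP9 replicates 4, 5 and 6. BMP9 replicate 4 exceeded 2 of the 3 controls. The log2 fold change of Icos was -0.74 (SE 0.46, 95% interval -1.72 to 0.23, limma adjusted p = 0.22). It was -1.30 without BMP9 replicate 4 (adjusted p = 0.014 by limma) and 0.37 within the earlier run time stamp (adjusted p = 0.59). Of the 3 neighbouring genes, BMP9 replicate 4 thus lay within the control range for Ctla4 and Icos and below it for Cd28.

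The 3 TNF receptor family members all lie on chromosome 4. Tnfrsf9 (150914562 to 150946102, overlapping Camta1 on the other strand) encodes 4-1BB, which is induced on activated T and NK cells. It was the highest member in both groups, at 706, 763 and 771 RPM in control and 245, 192 and 137 RPM in BMP9 overexpression libraries. It fell by 2.00 (SE 0.27, limma adjusted p = 6.9e-05), the smallest adjusted p of the 10. Tnfrsf18 (156026164 to 156028895, overlapped by the antisense gene Gm16008) encodes GITR, which is high on regulatory T cells. It was at 120, 167 and 143 RPM in control and at 51.2, 33.6 and 19.5 RPM in BMP9 overexpression libraries, and fell by 2.10 (SE 0.33, limma adjusted p = 0.00025). Tnfrsf4 (156013843 to 156016612), 9.55 kb from Tnfrsf18, encodes OX40, which supports survival of activated helper T cells. It was at 39.5, 126 and 78 RPM in control, a wide spread, and at 27.9, 24.5 and 13.4 RPM in BMP9 overexpression libraries. The groups did not overlap and Tnfrsf4 fell by 1.76 (SE 0.40, limma adjusted p = 0.0035). Within the earlier run time stamp its change was -1.36 (adjusted p = 0.071 by limma). The 3 TNF receptor genes had a combined level of 971 ± 97.3 RPM in control against 248 ± 76.8 RPM in BMP9 overexpression libraries, and the 4 CD28 family members (Pdcd1, Ctla4, Cd28 and Icos) one of 517 ± 92.8 against 241 ± 103 RPM (SD, n = 3 each).

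Within the BMP9 overexpression group the libraries kept a similar but not identical order across receptors. BMP9 replicate 6, the most deeply sequenced library, was the lowest of the 3 for 9 of the 10 members, and BMP9 replicate 4 the highest for 7. The sum of T cell markers was also lowest in replicate 6 (630 RPM) and highest in replicate 4 (1346 RPM). The later time stamp, on replicates 5 and 6, holds no control. Within the earlier stamp the median log2 fold change of the members was -1.41, beside -0.20 over all genes tested, and Havcr2 was at 2.22. Over all libraries the medians were -1.68 and -0.24.

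The mix of receptors differed between groups. Tnfrsf9 gave 50.8%, 45% and 45.8% of the summed level of the 10 receptors in control and 31%, 34.3% and 35.6% in BMP9 overexpression libraries. Havcr2 gave 1.43%, 1.21% and 0.981% of the sum in control and 11.6%, 9.69% and 15.1% in BMP9 overexpression libraries. Ctla4 gave 8.94 ± 1.15% and 12.6 ± 2.42% (SD, n = 3 each), with overlap. Without Havcr2 the inhibitory receptors, 4 in number, had a combined level of 313 ± 44.4 RPM in control against 137 ± 54.7 RPM in BMP9 overexpression libraries, and the 5 costimulatory receptors one of 1257 ± 146 against 373 ± 130 RPM (SD, n = 3 each).

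Cd3e encodes the CD3 epsilon chain, which carries the signal of the T cell receptor, and served as a measure of T cell RNA. It (chromosome 9, 44998740 to 45009627) was at 476, 550 and 654 RPM in control and at 119, 84.1 and 112 RPM in BMP9 overexpression libraries, a log2 fold change of -2.41 (SE 0.26, limma adjusted p = 1.4e-05). Every member had a smaller estimated decrease than Cd3e or a rise, and relative to Cd3e 5 members were higher in BMP9 overexpression libraries (Havcr2, Icos, Ctla4, Pdcd1 and Cd28) and none was lower, by limma on the log2 ratio. On this scale 92.2% of all 9459 genes tested were called, 91.7% higher and 0.486% lower, since Cd3e itself fell, so a count of 5 of 10 is below that background. Groups did not overlap for 4 of the 10 members, against 88% of all genes tested. The median of the members was 0.73, beside 2.17 over all genes tested. Of the 12 T cell markers tested relative to Cd3e 3 were higher and none lower, with a median of 0.39.

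**Figure D3:**
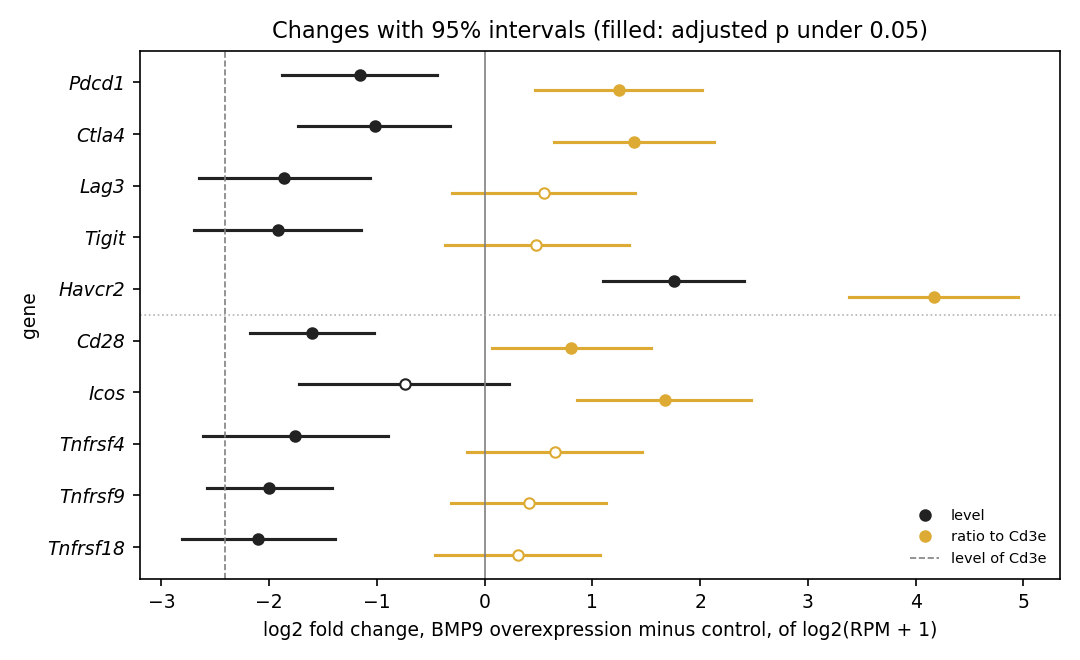
Log2 fold change with its 95% interval of each receptor, for its level (black) and for its ratio to Cd3e (yellow), BMP9 overexpression minus control on the log2(RPM + 1) scale, 3 libraries per group. Filled points passed an adjusted p of 0.05 and the dashed line is the change of Cd3e (-2.41). The points for level lie between 0 and the line of Cd3e for all receptors but Havcr2, while several intervals reach past 0 or that line.

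Ctla4 was at 23.4%, 26.4% and 26.3% of the Cd3e level in control and at 98.3%, 66.6% and 44.4% in BMP9 replicates 4, 5 and 6. The controls were close together and all 3 BMP9 libraries lay above them. The ratio rose by 1.39 on the log2 scale (SE 0.37, limma adjusted p = 0.00049). Pdcd1 was at 15.7%, 14.9% and 16.8% of Cd3e in control and at 44.7%, 56.9% and 20.2% in BMP9 overexpression libraries, again without overlap, and its ratio rose by 1.25 (SE 0.39, limma adjusted p = 0.0024). Icos was at 11%, 25.6% and 13.9% and at 95.3%, 57.7% and 22.6%, so BMP9 replicate 6 lay below control replicate 2. The Icos ratio rose by 1.67 (SE 0.40, limma adjusted p = 0.00014). Cd28 went from 34.3 ± 2.34% to 62 ± 21.8% (SD, n = 3 each), a rise of 0.80 (SE 0.37, limma adjusted p = 0.036). The Cd28 call was lost in 11 of the 18 alternatives, among them without control replicate 2 (0.76) or 3 (0.79), without BMP9 replicate 5 (0.54) and within the earlier run time stamp (0.73). Havcr2 went from 3.47 ± 0.851% to 64.5 ± 12.5% of Cd3e (SD, n = 3 each), a rise of 4.17 (SE 0.40, limma adjusted p = 4.1e-15).

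The other 5 receptors kept closer to Cd3e. The log2 change of the ratio was 0.55 (95% interval -0.30 to 1.40) for Lag3, 0.48 (-0.37 to 1.34) for Tigit, 0.65 (-0.16 to 1.46) for Tnfrsf4, 0.41 (-0.31 to 1.13) for Tnfrsf9 and 0.31 (-0.46 to 1.07) for Tnfrsf18. None passed the test (limma adjusted p between 0.12 and 0.44), and the intervals allow changes of more than 2-fold upwards. Without BMP9 replicate 6 the ratios of Lag3 (0.99) and Tnfrsf4 (1.01) also passed, and without control replicate 2 that of Tnfrsf4 (1.05). BMP9 replicate 6 had the lowest ratio of its group for all 10 members. In that library the T cell markers summed to 563% of Cd3e, against 1131% and 1216% in BMP9 replicates 4 and 5 and 889%, 850% and 686% in the control replicates, so the other T cell markers were low there relative to Cd3e.

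**Figure D4:**
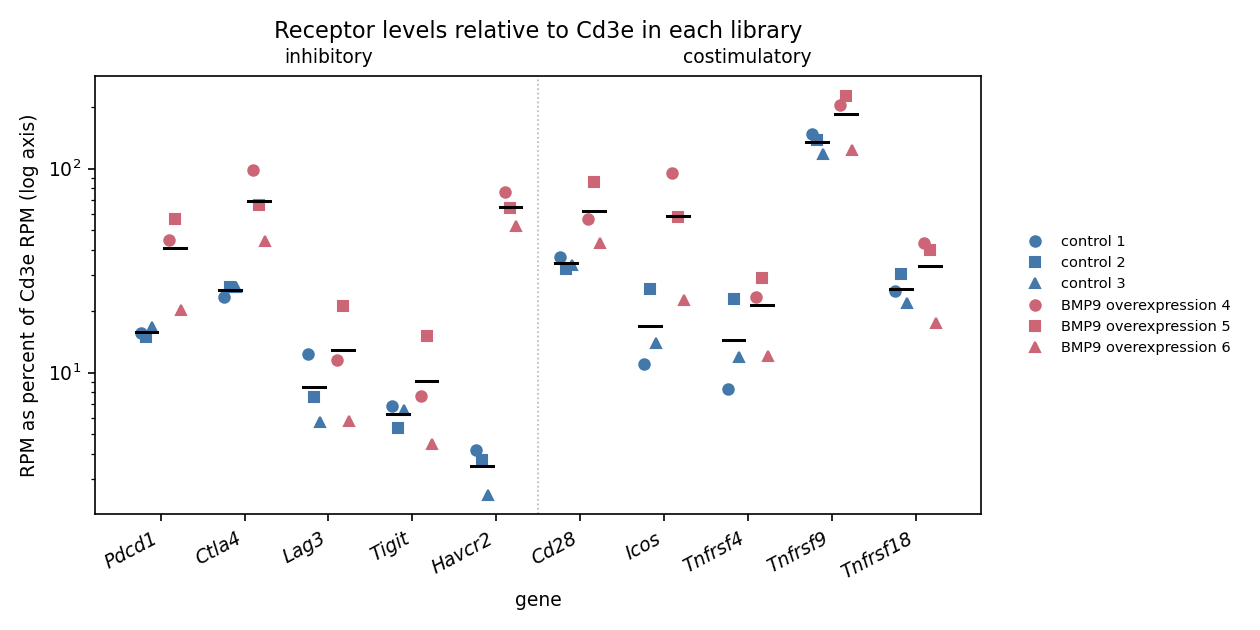
Level of each receptor as a percent of the Cd3e level of the same library (log axis), points by replicate and black bars for group means (n = 3 each). Pdcd1, Ctla4, Cd28 and Havcr2 have no overlap between groups, and BMP9 replicate 6 (red triangles) is the lowest of its group throughout.

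How many receptors were higher per T cell RNA depended on the gene used to measure it. The partner chains of Cd3e changed by -1.34 (Cd3d), -2.07 (Cd3g) and -1.97 (Cd247), and Cd2, an adhesion receptor of T and NK cells, by -1.46, beside -2.41 for Cd3e. Relative to Cd3e, Cd3d (1.07, limma adjusted p = 0.012) and Cd2 (0.95, limma adjusted p = 0.013) were higher, while the values for Cd3g (0.34, SE 0.37, limma adjusted p = 0.37) and Cd247 (0.44, SE 0.37, limma adjusted p = 0.26) did not pass the test. Against the mean of Cd3d, Cd3e and Cd3g, 3 receptors were higher (Havcr2, Icos and Ctla4). Against Cd3d, Cd3g and Cd247 there were 2 (Havcr2 and Icos), against the 14 T cell markers 3 (Havcr2, Icos and Ctla4) and against Cd2 only Havcr2. Over all genes tested, 7794 of 9457, 7124 of 9457, 7789 of 9460 and 4818 of 9459 were higher with these 4 references, in the same order. Most genes were thus higher too, and the counts of receptors are below that background. The Icos ratio was 1.20, 1.05, 1.29 and 0.72 with these 4 references, the Ctla4 ratio 0.92, 0.77, 1.01 and 0.44, the Pdcd1 ratio 0.78, 0.63, 0.87 and 0.30 and the Cd28 ratio 0.34, 0.19, 0.42 and -0.15. Havcr2 passed the test with each of the 4, at 3.70, 3.55, 3.79 and 3.22. In the ratio to Cd3e limma borrowed the spread strongly across genes that share the spread of Cd3e (prior degrees of freedom 72.6, against 11.2 for the levels), which makes its p-values small. With each gene's own spread instead, 2 receptors were higher relative to Cd3e, Havcr2 (adjusted p = 0.0021, from a linear model in limma without moderation) and Ctla4 (adjusted p = 0.02). In that fit 7963 of all 9459 genes tested were higher, so the count of 2 receptors is below that background.

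**Figure D5:**
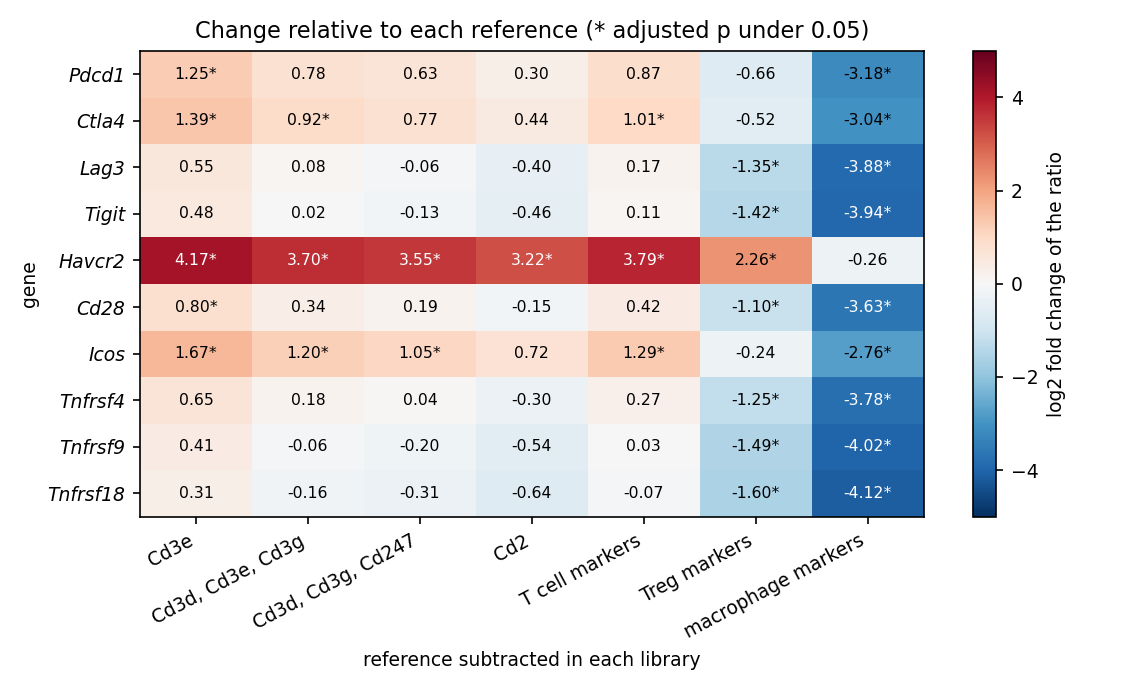
Log2 fold change (BMP9 overexpression minus control) of each receptor after subtracting a reference in each library, with 1 column per reference, red for higher and blue for lower; asterisks mark an adjusted p under 0.05. Havcr2 is higher against Cd3e and the 4 other T cell references (3.22 to 4.17) and against regulatory T cell markers (2.26), and is at -0.26 against macrophage markers, where the other 9 receptors are at -2.76 to -4.12.

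Of 10 regulatory T cell markers tested 4 fell (Foxp3, Il2ra, Ikzf4 and Lrrc32), none rose and 6 did not pass the test, with a median of -0.77, and all 10 were higher relative to Cd3e, as were 91.7% of all genes tested. Foxp3, the defining transcription factor of regulatory T cells, was at 78.1, 127 and 115 RPM in control and at 71.4, 61.9 and 41.6 RPM in BMP9 overexpression libraries (-0.86, SE 0.30, limma adjusted p = 0.036). Il2ra, the high-affinity interleukin 2 receptor chain of regulatory and activated T cells, fell by 1.37 (SE 0.27, limma adjusted p = 0.0014). The ratio of Ctla4 to Foxp3 was 143%, 114% and 150% in control and 164%, 90.5% and 119% in BMP9 overexpression libraries, with overlapping groups. Against the mean of the 11 regulatory T cell markers, a reference added after seeing the data, the changes of Ctla4 (-0.52, 95% interval -1.27 to 0.23), Icos (-0.24, -1.11 to 0.63) and Pdcd1 (-0.66, -1.44 to 0.12) did not pass the test. On that scale Lag3, Tigit, Cd28, Tnfrsf4, Tnfrsf9 and Tnfrsf18 were lower, at -1.10 to -1.60, where 7.22% of all genes tested were lower, and Havcr2 was higher at 2.26, where 18.2% were higher. This reference weighs each marker alike and fell less than Foxp3 or Il2ra did. It holds Gpr83, which was below the filter, and Ccr8, Il10 and Ebi3, with group means of 4.51 to 8.73 RPM. The changes of these last were 0.45, 0.73 and 0.23, and none passed the test. The other markers tested had negative estimates. The count of 6 receptors lower was 3 without control replicate 1, 3 without control replicate 3 and 2 without BMP9 replicate 6. Shares over all genes were not recorded for these fits, so a general loss of calls cannot be told apart here. Tnfrsf9 kept its call in all 13 alternatives run on this scale and Tnfrsf18 in 12, whereas Tnfrsf4 lost it in 5, Cd28 in 4, Tigit in 3 and Lag3 in 2. Cd8a and Cd8b1, the chains of the cytotoxic T cell coreceptor, changed by -2.86 and -2.99, and Cd4 by -1.56 (SE 0.45) with BMP9 replicate 5 at 126 RPM among the controls.

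Genes that work with the receptors were described from lists that hold none of the 10. Ligands were mostly higher: of 9 tested 6 rose and none fell, with a median of 1.61. Cd80 and Cd86, the shared ligands of CD28 and CTLA-4, went from 23.1 ± 4.23 to 159 ± 27.1 RPM (2.73, SE 0.28, limma adjusted p = 9.1e-06) and to 2.95 times the control mean (1.61, SE 0.29, limma adjusted p = 0.00067; SD, n = 3 each). Ceacam1, described as a ligand of TIM-3, rose by 2.52 (SE 0.31) and Pvr, a ligand of TIGIT, by 1.01 (SE 0.30). Lgals9, also in the ligand list, had a change of -0.05 (SE 0.28, limma adjusted p = 0.9). Nectin2, of the same list, was below the filter. Of the 2 ligands of PD-1, Pdcd1lg2 rose by 2.02 (SE 0.39) and Cd274, which encodes PD-L1, had a change of 0.31 (SE 0.29, limma adjusted p = 0.43). Icosl was at 34.8 ± 6.91 and 38.7 ± 7.61 RPM (SD, n = 3 each). The ligands of the 3 TNF receptor members, Tnfsf4, Tnfsf9 and Tnfsf18, were below the filter, with means of 5.99, 4.91 and 0 RPM in control and 1.87, 4.06 and 0.415 RPM in BMP9 overexpression libraries.

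Of 14 signalling partners 7 fell and none rose, with a median of -0.57. Traf1 and Traf2, adaptors of the TNF receptor members, fell by 2.08 (SE 0.29) and 1.77 (SE 0.28), and Prkcq, the kinase downstream of CD28, by 3.12 (SE 0.31). Ptpn6 and Ptpn11, the phosphatases SHP-1 and SHP-2, had changes of -0.31 (SE 0.25, limma adjusted p = 0.35) and 0.11 (SE 0.26, limma adjusted p = 0.77). Of 17 transcription factors linked to checkpoint receptor expression 4 rose and 7 fell, with a median of -0.64. Eomes, Tbx21 and Tox, factors of effector and exhausted lymphocytes, fell by 3.59, 2.46 and 1.93, while Nr4a1, which T cell receptor signals induce and macrophages also express, rose by 1.75 (SE 0.39). Of 13 other receptors of the same families and functions 6 fell and 1 rose, with a median of -0.64. Cd96 and Cd226, which bind the same ligands as TIGIT, fell by 3.47 (SE 0.31) and 2.30 (SE 0.28), and Lair1, a collagen receptor of many leukocytes, rose by 1.96 (SE 0.26).

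The genes whose level was most like the summed level of the 10 receptors over the 6 libraries were Calr (Pearson's r 0.9984), Tbx21 (0.9982), Smco4 (0.9981), Akr1c12 (0.9978) and Hsd11b1 (0.9975), on log2(RPM + 1) scales. Cd3e had an r of 0.9285 and stood 510th in that order. The 6 points fall into the 2 groups, so such values mostly restate the difference between groups and are given as a description.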

How the data were processed

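CD31-positive cells from 6 tumour samples were profiled with the mouse AmpliSeq transcriptome kit for Ion Torrent, which copies a short piece of each transcript, per the labels' protocols. The authors deposited RPM, and the size of the steps between low values shows whole reads divided by 1 total for each library. The submitters' processing notes name mm10; an aligner and a counting tool were not given in the sources used here. Whole reads were recovered for 100% of nonzero values within 0.05 reads (largest deviation 0.015). Titles gave each sample's group and number. Limma-trend (limma 3.58.1, R 4.3.3) was fitted to log2(RPM + 1) for the 9460 genes reaching 5 RPM in 3 or more libraries, and p-values were adjusted by Benjamini-Hochberg (threshold 0.05). For ratios the log2(RPM + 1) of Cd3e was subtracted in each library before the same fit. edgeR 4.0.16 and DESeq2 1.42.0 were run on recovered reads. The procedure was tested on simulated data.

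The members and lists were chosen with earlier results of these data known. Named genes were the members, up to 3 genes of smallest p per list and the 5 genes most like the members' sum. Csf1r, Foxp3, Cd4, Cd8b1, Cd274, Pdcd1lg2, Pvr, Icosl, Tnfsf4, Tnfsf9, Tnfsf18, Ptpn6, Ptpn11 and Nr4a1 were added once their values had been seen. The same holds for Gpr83, Ccr8, Il10, Ebi3, Lgals9 and Nectin2. Gene positions are those of GENCODE M21 and give the whole gene, not the amplicon. Intervals cover the spread between libraries; reads are PCR copies without molecular identifiers.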

Additional observations from a re-analysis of the deposited data

How the results depend on the processing

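For levels, 8 receptors were lower in the main analysis (2130 of all 9460 genes tested), 5 with no filter (1512 of 18274) and 5 with a covariate for the stamp (1855 of 9460). With each gene's own spread, which was added after seeing the data, 4 were lower (1136 of 9460). In the earlier stamp alone the median change of the members was -1.41, against -1.68 in the main analysis. Leaving out 1 library gave 6 to 9 lower and 1 higher. Over all 9460 genes tested, these fits gave 1367 to 2312 lower and 933 to 1240 higher. In the earlier stamp BMP9 replicate 4 is the single BMP9 library, and it is assumed to vary like the others. Cd28, Tigit, Tnfrsf9 and Tnfrsf18 stayed lower and Havcr2 higher in all 18 alternatives, whereas Ctla4 lost its call in 11, Pdcd1 in 8, Tnfrsf4 in 4 and Lag3 in 1. All-gene calls were 1200 higher and 2130 lower, against 1751 and 3351 with array weights and 562 and 1136 with each gene's own spread. Calls over all genes were 36% higher as deposited, against 54.1% with TMM, 49.4% after quantile normalization, 54.4% with edgeR (6 receptors lower) and 53.4% with DESeq2 (7 lower). Of all 9460 genes tested, 1421 were lower with edgeR and 1546 with DESeq2. Relative to Cd3e, 5 receptors were higher, against 8 with a pseudocount of 5, 3 with array weights, 2 with each gene's own spread, and 3, 2, 1 and 3 with the mean of Cd3d, Cd3e and Cd3g, the mean of Cd3d, Cd3g and Cd247, Cd2 and the T cell marker list as reference. Leaving out 1 library gave 4 to 7. In each of these fits most genes tested were higher, from 4818 of 9459 with Cd2 to 9073 of 9459 with a pseudocount of 5. With Cd2 the change of Cd28 was -0.15. The causes of these differences were not tested. No paired analysis was possible because the groups share no replicate number. In the shallowest library 3 reads correspond to 2.27 RPM, below every member's level.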
